A study of Mus musculus with 12 samples.

Results

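The genes described here encode the voltage-gated potassium, sodium and calcium channels and the other potassium channels, with their auxiliary subunits. They were chosen by name: autosomal rows of the expression table whose leading gene symbol begins with Kcn, Cacn, or Scn and a digit. This gave 94 of the 14899 genes in the table. Each row is counted as a gene, and Kcnk4 has 2 rows, with nearly the same counts. Another 2 genes of such names lie on the X chromosome and were left out. By role there were 31 pore-forming subunits of voltage-gated potassium (Kv) channels, 7 Kv auxiliary subunits, 9 inward rectifiers, 9 tandem-pore potassium channels, 9 genes of calcium- or sodium-activated potassium channels, 5 sodium channel alpha and 3 beta subunits, 6 calcium channel alpha1 subunits, 13 calcium channel auxiliary subunits and 2 others, the noncoding RNA Kcnq1ot1 and Kcnrg.

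All cells were hybrids of the mouse strains 129Sv and Cast/EiJ, so that reads over strain variants show the parental allele they came from. Polyadenylated RNA was sequenced from the embryonic stem (ES) cell lines F1-21.6, which is XX, and F1-23, which is XY, and from 8 neural progenitor (NPC) lines differentiated from them. ES cells had been grown with LIF and serum on feeder fibroblasts (mitomycin C-inactivated MEFs). Of the NPC lines, 4 came from F1-21.6 (clones 129, C2, G4 and E1.2, all XX, where 129 is a clone name) and 4 from F1-23 (mC3, mE6, mB4 and mG3, all XY). Each NPC line is 1 clone with 1 library, and each ES line has 1 library, so p-values measure the spread between these libraries. The library names of the XX clones begin differently from all others, so the line, the sex chromosomes and the set of libraries cannot be told apart among the clones.

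Voltage-gated channels open when the membrane depolarises: sodium channels start the action potential, potassium channels end it, and calcium channels turn it into calcium entry. Inward rectifiers and tandem-pore channels set the resting potential, and in glia, including the radial glia that neural progenitors resemble, they also take up potassium. Auxiliary subunits carry the pores to the membrane and set their gating, and most of these genes are best known from neurons.

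Total allele-informative counts ran from 61375911 to 119266777 per library, and the median gene had 1011 to 1947 of them. The channel genes took 0.0593% and 0.0678% of all counts in the ES lines and between 0.358% and 0.455% in the NPC clones. Counts depend on how many strain variants a gene holds, so levels of different genes were compared in FPKM, which is normalised for transcript length and depth, and libraries were compared in CPM, counts scaled to a common library total. The table keeps only genes that reach 11 counts in some NPC clone, and 1635 of them, 14 being channel genes, do not reach this in either ES line. Channels expressed in ES cells alone are therefore not covered. Rows that do not reach 11 counts in either ES line are in the table only through their clone counts. Their folds and p-values are therefore not independent of this filter. Scn7a, Kcnk13, Kcnh5, Kcnj2 and Kcnmb3 are among them. The labels fit most of the markers: the summed FPKM of 7 neural progenitor genes was 372 and 423 in the ES lines and between 3176 and 5877 in the clones. Of these 7, 6 were higher in clones, and Fabp7 alone had a mean of 2345 FPKM there. Sox2 went the other way, from a mean of 232 FPKM in ES lines to 64.5 in clones. The 6 neuronal markers summed to 30.6 and 60.5 in ES lines and to between 8.01 and 23.5 in the clones, 5 astrocyte markers to 94.8 and 103 and to between 88.7 and 269, and 4 oligodendrocyte markers stayed under 8 in all libraries. The 2 pluripotency markers in the table summed to 304 and 217 in ES lines and to at most 4.63 in clones. Aqp4, S100b, Dcx, Fabp7 and Olig2 had no counts in ES lines. The neuronal marker Dcx was thus higher in clones (mean 4.80 FPKM), although the neuronal sum was lower.

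Clone E1.2 stood apart in some markers of other cell types. Its 7 fibroblast genes summed to 41.1 FPKM against 0.925 to 5.17 in the other clones, and to 25.1 and 44.4 in the ES lines. Of this sum 24.2 came from Col3a1, while Col1a1, Postn and Pdgfrb were below both ES lines in every clone. Aqp4, an astrocyte water channel gene, was at 178 CPM in E1.2 and at 0.606 to 21.7 in the other clones. The summed astrocyte markers were highest in mB4, at 269 FPKM, above E1.2 at 248. E1.2 is the highest or lowest clone for many of the channel genes below, and the part of such cells in their values was not tested. In bulk RNA, fewer cells of a type and less RNA per cell cannot be told apart.

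By level in FPKM, the largest gains of NPC clones over ES lines were in the fast Kv channel gene Kcnc1 and the A-type channel gene Kcnd3, and the largest loss was in the leak channel gene Kcnk5. Of 93 channel genes tested with edgeR's quasi-likelihood test (Benjamini-Hochberg adjusted p of 0.05, line as a covariate), 33 were higher in NPC clones, 12 were lower and 48 did not pass. Over all 14561 genes tested, 33.3% were higher and 29.7% lower. The share of channel genes that were higher, 35.5%, was close to that of all genes, and the share that were lower, 12.9%, was below it. The median log2 change was 1.4 over the channel genes and 0.11 over all genes. With limma on log2(FPKM + 1) the split was 26 higher and 17 lower.

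**Figure D1:**
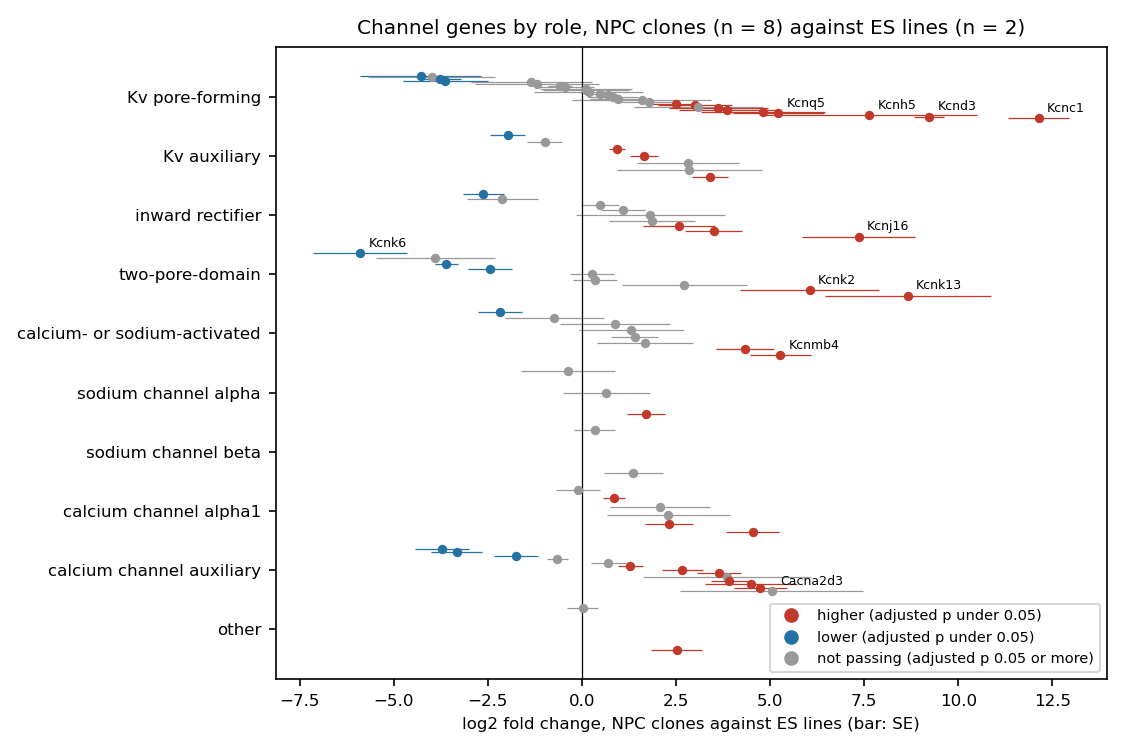
Log2 change in NPC clones against ES lines (edgeR) for the channel genes, 1 point per gene for 86 of them, grouped by role, with called genes coloured by direction and genes without ES counts left out. Kcnc1 and Kcnd3 stand at the top of the Kv pore-forming group with 12.13 and 9.23, and 3 of the tandem-pore genes lie below 0 as called.

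The levels did not overlap for most of the called genes. All 8 clones lay above both ES lines in 28 of 94 channel genes (29.8%, against 31.4% of all genes) and below both in 12 (12.8%, against 29.3%). Of the 33 genes called higher 27 did not overlap, and of the 12 called lower 11 did not. The calls were made on the same libraries, so this describes the called genes and is no separate evidence for them. The summed FPKM of the channel genes was 120 and 134 in the ES lines and between 356 and 491 in the clones, although the median channel gene had a mean of only 0.751 FPKM in the clones, against 6.95 for the median gene of the table.

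The promoters of 5 genes on which these results turn are shown for their contrast in CpG content. Each sequence is the 250 bases before the outer start of the gene's interval in the table, in build mm9, 5′ to 3′ on the gene's strand, with CpG dinucleotides in capitals. Kcnc1 (chr7:53651588-53651837, plus strand, 30 CpG), Kcnd3 (chr3:105254998-105255247, plus strand, 30 CpG), Scn7a (chr2:66623016-66623265, minus strand, 3 CpG) and Kcnj16 (chr11:110829097-110829346, plus strand, 3 CpG) were all higher in NPC clones. Kcnk5 (chr14:21001005-21001254, minus strand, 19 CpG) was lower.
Kcnc1: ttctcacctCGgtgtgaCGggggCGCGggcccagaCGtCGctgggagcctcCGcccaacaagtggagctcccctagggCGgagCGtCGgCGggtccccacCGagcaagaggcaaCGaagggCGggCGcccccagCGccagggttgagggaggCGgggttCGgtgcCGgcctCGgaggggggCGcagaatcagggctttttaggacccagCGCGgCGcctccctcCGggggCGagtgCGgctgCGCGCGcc
Kcnd3: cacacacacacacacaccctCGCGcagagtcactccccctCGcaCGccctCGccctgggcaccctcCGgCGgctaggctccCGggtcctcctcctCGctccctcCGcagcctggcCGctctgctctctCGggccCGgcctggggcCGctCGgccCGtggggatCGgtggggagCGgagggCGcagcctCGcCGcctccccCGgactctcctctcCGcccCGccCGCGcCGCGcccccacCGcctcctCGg
Scn7a: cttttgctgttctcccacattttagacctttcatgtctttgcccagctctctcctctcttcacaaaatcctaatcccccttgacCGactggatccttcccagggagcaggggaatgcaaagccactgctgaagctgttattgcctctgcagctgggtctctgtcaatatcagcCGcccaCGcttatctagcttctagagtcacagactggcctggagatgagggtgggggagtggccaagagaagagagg
Kcnj16: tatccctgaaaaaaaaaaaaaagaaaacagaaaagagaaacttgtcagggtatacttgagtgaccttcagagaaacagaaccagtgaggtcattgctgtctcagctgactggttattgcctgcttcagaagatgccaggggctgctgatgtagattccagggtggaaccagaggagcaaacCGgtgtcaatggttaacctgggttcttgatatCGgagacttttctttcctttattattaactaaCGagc
Kcnk5: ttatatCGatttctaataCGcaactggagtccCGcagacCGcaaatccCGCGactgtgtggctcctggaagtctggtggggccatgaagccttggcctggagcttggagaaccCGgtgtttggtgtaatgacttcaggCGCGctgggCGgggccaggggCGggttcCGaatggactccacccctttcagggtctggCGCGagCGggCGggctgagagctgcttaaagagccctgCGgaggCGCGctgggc
Genes gained in NPC clones thus started from CpG-rich and CpG-poor sequence alike. In windows from 250 bases before to 50 after the start, the 32 channel genes called higher that had a window held a median of 12.5 CpG, with quartiles of 5 and 34, and the 12 called lower held 24. Over all genes the medians were 18 for those called higher and 19 for those called lower. The outer start may not be the start used in these cells: it lies 29 bases from the nearest annotated start for Kcnc1 and 44 for Scn7a, and on it for the other 3. TATAAA, searched on both strands, was present in 4 of 92 windows of channel genes (Kcnj9, Cacna1d, Kcnj15 and Kcnk4) and in 8.29% of the 13429 windows of all genes.

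Kv pore-forming subunits summed to 13.1 and 16.8 FPKM in the ES lines and to between 158 and 226 in the clones. Of the 31 genes, 10 were higher, 3 lower and 18 did not pass. The 10 include Kcnq1, whose counts are shared with Kcnq1ot1 and whose own FPKM did not show the rise. Most of the sum in clones came from Kcnc1 and Kcnd3. Kcnc1 (chr7:53651838-53694074) encodes Kv3.1, the channel of fast-spiking neurons. It was at 0.561 CPM in the XX and 0.0705 in the XY ES line, from 38 and 5 counts. In the clones it ran from 961 in mB4 over a median of 1324 to 1912 in C2, and every clone stood far above both ES lines. The log2 change was 12.13 ± 0.82 (SE; edgeR adjusted p = 4.16e-06), and the level was 107 ± 25.5 FPKM (SD, n = 8), more than that of any other channel gene. The gene lies inside the interval of Sergef, and reads of overlapping genes cannot be told apart here. Without the XX or the XY ES line the log2 change was 14.08 or 11.28.

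Kcnd3 (chr3:105255248-105477149) encodes Kv4.3, a pore of the A-type current that delays firing. It was at 1.06 and 0.677 CPM in the ES lines. The clones ran from 344 in G4 over a median of 565 to 650 in mG3, and the groups were far apart. The change was 9.23 ± 0.41 on the log2 scale (edgeR adjusted p = 6.19e-07), or 9.84 without the XX ES line, and the level was 58.6 ± 12 FPKM (SD, n = 8). Its relative Kcnd2 (Kv4.2) stayed low: it was at 0 and 0.0846 CPM in ES lines and at 0.309 to 5.40 in clones (log2 change 4.81, edgeR adjusted p = 0.0294). The call did not hold without the XX ES line (log2 change 3.46) or with limma on log2(FPKM + 1) (limma adjusted p = 0.128).

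Other Kv genes that rose reached lower levels. Kcnq5, an M-current subunit, was at 0.163 and 0.592 CPM in ES lines and at 0.607 in clone 129, 5.60 to 19.2 in the other XX clones and 11.2 to 20.1 in XY clones (5.22 ± 1.21, edgeR adjusted p = 0.00455). Clone 129 thus barely exceeded the ES lines. Kcna2 (Kv1.2), an axonal channel, rose from 0.901 and 0.310 CPM to between 1.32 and 59.0, with the top value in mC3 (3.62, edgeR adjusted p = 0.0371). Kcnf1, a silent subunit that only modifies other pores, was called higher (3.0, edgeR adjusted p = 0.0246), but clone 129 at 0.370 CPM lay between the ES lines at 0.842 and 0.296. Kcnh5, an ether-a-go-go channel gene, rested on 0 and 0.0282 CPM in ES lines against 0.0740 to 24.1 in clones (7.63 ± 2.86, edgeR adjusted p = 0.0413), and its call was lost in 8 of the alternatives, among them without either ES line and without C2, mE6, mB4 or mG3 (adjusted p from 0.0566 to 0.222). Other calls here also rested on 1 library: Kcnq5 missed the threshold without the XX ES line (adjusted p = 0.0504), Kcna2 without the XY ES line, C2 or mB4 (0.188, 0.0676 and 0.0522), and Kcnf1 without the XX or XY ES line (0.0501 and 0.171).

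The Kv genes that fell were all low. Kcnh3, an ether-a-go-go-like channel gene, was at 2.98 and 0.888 CPM in ES lines and at 0.0495 to 0.274, median 0.111, in clones (-3.77 ± 0.57, edgeR adjusted p = 0.00041). The silent subunits Kcng3 (-3.62, edgeR adjusted p = 0.0189) and Kcns1 (-4.29, adjusted p = 0.042) fell from under 0.7 CPM. Kcns1 did not pass with DESeq2 (adjusted p = 0.135) or with edgeR without the line covariate (adjusted p = 0.142). Kcng3 was not called without the XY ES line (adjusted p = 0.333), and Kcns1 was not without either ES line, C2 or any XY clone (adjusted p from 0.0606 to 0.544). Kcnh3 was -2.94 and -4.36 without the XX and the XY ES line. Kcnh2 (the ERG channel of the heart), at 34.6 and 25.2 CPM in ES lines and 12.3 to 30.5 in clones, did not pass (-0.59, edgeR adjusted p = 0.128).

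Kv auxiliary subunits summed to 7.85 and 9.67 FPKM in ES lines and to 18.0 to 48.4 in clones, with 3 of 7 higher and 1 lower. Kcnip3 encodes a calcium-binding partner of Kv4 pores, also known as DREAM. It was at 7.86 and 6.33 CPM in ES lines, at 38.2 (E1.2) to 73.7 in XX clones and at 74.5 to 157 in XY clones (3.41 ± 0.48, edgeR adjusted p = 0.000257). All clones were above both ES lines, and the level was 24.4 ± 12.2 FPKM (SD, n = 8). Without the XX and the XY ES line the change was 4.23 and 2.82. Kcnip2, another Kv4 partner, fell by 1.97 on the log2 scale (edgeR adjusted p = 0.0053). The other genes called higher were Kcnip4 and Kcnab1, whose counts are shared with overlapping genes.

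Among inward rectifiers 3 of 9 were higher and 1 lower, and the sum went from 4.21 and 6.71 FPKM to between 8.25 and 21.9. Kcnj16 (chr11:110829347-110889281) encodes Kir5.1, which forms pH-sensitive channels with the glial subunit Kir4.1. It was at 0 and 2.57 CPM in ES lines and from 95.4 in clone 129 over a median of 170 to 376 in G4. The groups did not overlap, the log2 change was 7.35 ± 1.51 (edgeR adjusted p = 0.00231) and the level was 8.14 ± 3.5 FPKM (SD, n = 8). Kcnj10, which encodes Kir4.1 itself, did not pass: the ES lines were at 4.55 and 6.19 CPM, and the clones ran from 0.320 in mG3 to 88.0 in C2 (1.82, edgeR adjusted p = 0.441). Kcnj2 (Kir2.1), a classical strong rectifier, rose at a low level from 0.103 and 0.113 CPM to between 0.533 and 3.09 (3.5, edgeR adjusted p = 0.00302). Kcnj12 (Kir2.2), of the same subfamily, moved the other way: 35.4 and 12.4 CPM in ES lines and 2.10 (E1.2) to 7.95 in clones, with no overlap (-2.61 ± 0.54, edgeR adjusted p = 0.0023). Its call did not hold without the XX ES line (-1.64, adjusted p = 0.0924), while that of Kcnj16 held without either line, at 6.04 without the XX line.

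Tandem-pore channels carry leak current, and their sum was lower in every clone, 7.0 to 22.5 FPKM, than in the ES lines at 37.8 and 47.3. Of 9 genes, 2 were higher and 3 lower. Kcnk5 (TASK-2; chr14:20959280-21001004) was the main tandem-pore gene of the ES lines, at 75.2 and 67.7 CPM. The clones were at 3.41 (E1.2) to 9.08, all far below (-3.61 ± 0.31, edgeR adjusted p = 1.49e-05), and the mean level went from 22.3 to 1.98 ± 0.655 FPKM (SD, n = 8). Kcnk1 (TWIK-1) fell from 11.6 and 31.4 CPM to between 1.64 and 11.4, with its highest clone, E1.2, just under the XX ES line (-2.45 ± 0.58, edgeR adjusted p = 0.00523). Kcnk6 (TWIK-2) was at 4.12 and 5.51 CPM in ES lines and at 0 to 0.241 in clones (-5.89 ± 1.24, edgeR adjusted p = 0.00272, and -6.93 without C2). The call of Kcnk1 was lost without the XY ES line (-0.56, adjusted p = 0.43).

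Kcnk2 and Kcnk13 rose. Kcnk2 (TREK-1, a mechanosensitive leak channel) was at 0 and 0.719 CPM in ES lines, at 0.651 in clone 129 and at 10.3 to 36.3 in the other 7 clones (6.05 ± 1.84, edgeR adjusted p = 0.0171), and the call did not hold without the XX ES line (adjusted p = 0.0819). Kcnk13 (THIK-1; chr12:101198863-101300978) had only 7 and 6 counts in the ES lines, 0.103 and 0.0846 CPM. Its clones were at 1.02 in clone 129, 11 in G4, 19.8 in E1.2, 164 in C2 and 19.7 to 40.8 in XY clones (8.66 ± 2.20, edgeR adjusted p = 0.00725). Limma on log2(FPKM + 1) did not give this call (limma adjusted p = 0.0962). The call was lost without either ES line (adjusted p of 0.0664 without the XX and 0.0541 without the XY line), and the change was 7.53 without C2.

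Calcium- and sodium-activated channels summed to 8.04 and 8.12 FPKM in ES lines and to 21.1 to 31.6 in clones, with 3 of 9 higher and 1 lower. Kcnmb4, the brain-type beta subunit of BK channels, rose from 0.207 and 1.79 CPM to between 16.9 in E1.2 and 46.7 in C2 (5.27 ± 0.81, edgeR adjusted p = 0.000434). Its level was 19.6 ± 5.21 FPKM (SD, n = 8), and its interval overlaps the noncoding gene 1700058G18Rik. Without the XX and the XY ES line its change was 4.25 and 7.41. Kcnt1, a sodium-activated channel gene, was at 3.16 and 1.13 CPM in ES lines and at 14.0 to 102 in clones, highest in E1.2 (4.34, edgeR adjusted p = 0.00102). Kcnmb3 had no ES counts and stayed at 0 to 0.239 CPM in clones, at least 6.49-fold higher over the group (edgeR adjusted p = 0.0318). Its call was lost without either ES line. It was also lost with limma on log2(FPKM + 1) and log2(FPKM + 0.1) (limma adjusted p = 0.209 and 0.19). The row is in the table only through its clone counts, at most 27, so its fold and p are not independent of that filter. Kcnn1, a small-conductance channel gene, fell from 19.5 and 16.7 CPM to between 0.924 and 7.47, highest in E1.2 (-2.17 ± 0.58, edgeR adjusted p = 0.00935; 0.12 without the XX ES line). Kcnn2 was at 6.15 and 7.66 CPM in ES lines and at 0.326 to 31.6 in clones, highest in E1.2 (-0.73, edgeR adjusted p = 0.646).

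Sodium channel alpha subunits stayed low, at 0.740 and 1.17 FPKM summed in ES lines and 1.64 to 5.59 in clones, and 2 of the 4 tested were higher. Scn7a (chr2:66511483-66623015) encodes Nax, a sodium sensor found in glia rather than a voltage-gated pore. It had no counts in either ES line and was at 1.73 in E1.2, 5.06 in clone 129, 5.64 in C2, 25.2 in G4 and 2.35 to 8.30 CPM in XY clones, at least 332-fold higher over the group (edgeR adjusted p = 0.00118). Every clone had counts of a gene that had none in either ES line. As for Kcnmb3, the row is in the table only through its clone counts, so its fold and p are not independent of that filter. With limma on log2(FPKM + 1) Scn7a did not pass (limma adjusted p = 0.0848). Scn8a (Nav1.6), the main sodium channel of mature neurons, rose from 7.65 and 5.16 CPM to between 10.4 and 49.3 (1.69 ± 0.50, edgeR adjusted p = 0.0157; 0.114 and 0.0727 without the XX and the XY ES line). None of the 3 beta subunits passed.

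Calcium channel alpha1 subunits summed to 4.56 and 6.29 FPKM in ES lines and to 10.8 to 16.8 in clones, and 3 of 6 were higher. Cacna1c (Cav1.2), the L-type pore, was at 3.65 and 4.99 CPM in ES lines and from 38.1 in E1.2 over a median of 86.7 to 183 in mG3 (4.54 ± 0.70, edgeR adjusted p = 0.000456). Cacna1g (Cav3.1, T-type) rose from 4.93 and 10.1 CPM to between 17.6 and 68.1 (2.32, edgeR adjusted p = 0.0102; 0.113 without the XX ES line). Cacna1h (Cav3.2, also T-type) overlapped: 33.6 and 14.7 CPM in ES lines and 32.7 (E1.2) to 53.1 in clones (0.85, edgeR adjusted p = 0.0276), and was not called without the XY ES line (0.34, adjusted p = 0.309). Cacna1b, the N-type pore, was at 22.3 and 103 CPM in ES lines and at 34.7 (E1.2) to 116 in clones (-0.10, edgeR adjusted p = 0.889).

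Of the calcium channel auxiliary subunits, 6 of 13 were higher and 3 lower, with a median log2 change of 2.66, and the sum went from 27.0 and 42.8 FPKM to between 92.0 and 136. Cacna2d1, an alpha2delta subunit and the binding site of gabapentin, was at 6.54 and 16.8 CPM in ES lines and from 141 in mC3 over a median of 287 to 533 in E1.2 (4.74 ± 0.71, edgeR adjusted p = 0.00037). The beta subunit Cacnb2 rose from 0.133 and 5.29 CPM to between 24.9 and 119, highest in E1.2 (4.49, edgeR adjusted p = 0.0106). Both were above the ES lines in every clone. Without the XX and the XY ES line the changes were 4.07 and 5.70 for Cacna2d1 and 3.16 and 9.17 for Cacnb2.

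The other auxiliary genes that stood out belong to the gamma family, whose members 4, 7 and 8 also act as partners of AMPA receptors. Cacng4 (chr11:107593454-107656176) was at 19.3 and 10.6 CPM in ES lines, at 121 to 199 in XX clones and at 353 to 422 in XY clones (3.92 ± 0.49, edgeR adjusted p = 0.000133; 25.2 ± 11.8 FPKM, SD, n = 8). Cacng7 rose from 13.1 and 28.8 CPM to between 38.5 and 72.1 (1.28 ± 0.33, edgeR adjusted p = 0.00787), and its level of 31.9 ± 4.13 FPKM (SD, n = 8) varied little. Cacng8 rose from 0.236 and 0.0705 CPM to between 1.16 and 2.48 (3.65, edgeR adjusted p = 0.000602). Cacng6, related to the gamma subunit of skeletal muscle, fell from 7.18 and 13.3 CPM to between 0.360 and 4.88, highest in E1.2 (-3.72 ± 0.72, edgeR adjusted p = 0.00171). Cacna2d2 was also called lower (-1.75, edgeR adjusted p = 0.0262), but E1.2 at 7.45 CPM lay between the ES lines at 11.7 and 4.95. Without the XX ES line Cacng4 was at 5.16 and Cacng8 at 4.82, and without the XY line at 3.13 and 2.91, all called. The calls of Cacng7 (adjusted p = 0.0639 without the XX line), Cacng6 (0.13 without the XY line) and Cacna2d2 (0.134 and 0.137 without either) were lost.

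**Figure D2:**
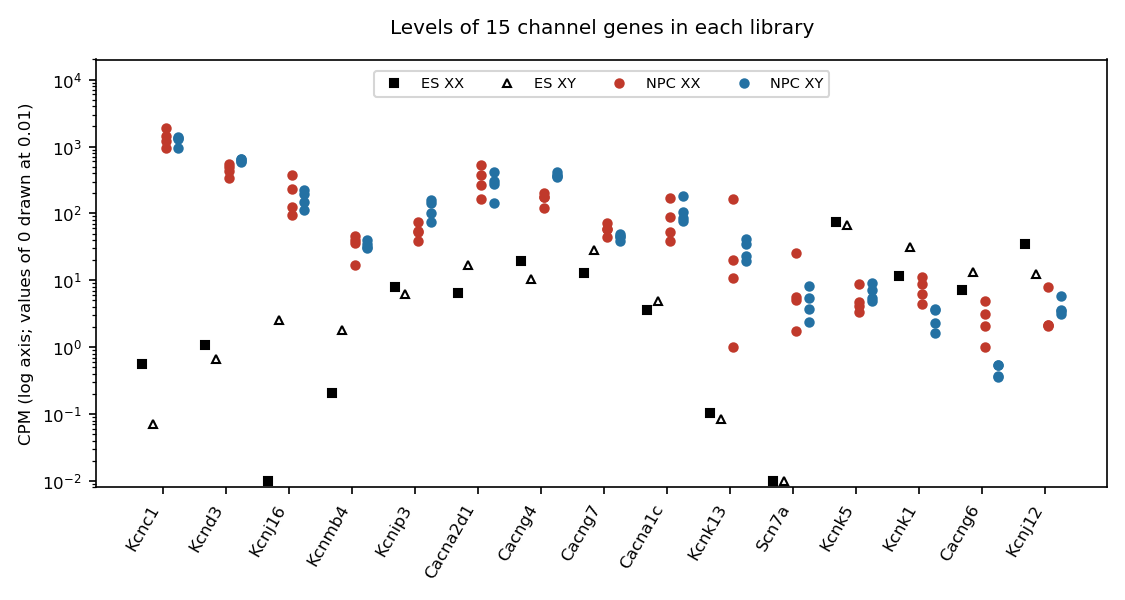
CPM (log axis, 0 drawn at 0.01) of 15 channel genes chosen after their values were seen, 1 point per library, for the ES lines and the XX and XY NPC clones. Kcnc1 and Kcnd3 stand at about 1 CPM or below in ES lines and above 300 in every clone, while Kcnk5 falls from 75.2 and 67.7 to under 10.

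Some rows share their reads with another gene, and their changes are uncertain. The rows Kcnq1 and Kcnq1ot1, the noncoding RNA transcribed antisense from within Kcnq1, carry nearly the same counts, 21425 for each in C2. The rows were called higher in counts (2.49 and 2.52, edgeR adjusted p = 0.0107 and 0.01), while the FPKM of Kcnq1 itself went from 0.0688 to 0.0024 and that of Kcnq1ot1 from 0.0482 to 0.462. The FPKM of the channel gene itself did not show the counted rise, and neither call held without the XX ES line (edgeR adjusted p = 0.108 and 0.103). For Kcnab1 the FPKM was 0.194 and 0.0563 in ES lines and 0.0876 to 0.190 in clones, and does not show the change in its counts. Without 10 of the rows that share counts with another row, 29 of 83 channel genes tested were higher and 11 lower. Some rows that were kept there also overlap another row, among them Kcnip1, Kcnq1ot1, Kcnk4, Kcnc1, Kcnd3, Cacna1c and Cacnb2.

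Genes that work with these channels did not shift as a group. Of 38 partner genes listed, 31 were in the table; 10 were higher, 10 lower and 9 did not pass, with a median log2 change of -0.09. Unc79, a subunit of the sodium leak channel complex, rose from 0.355 and 0.649 CPM to between 149 and 278 (8.87, edgeR adjusted p = 6.04e-07), while Nalcn, the pore of that complex, was at 0.635 and 1.17 CPM in ES lines and 0 to 1.51 in clones. The scaffold gene Ank2 rose by 5.22 and Dlg4, which encodes PSD-95, by 3.13 on the log2 scale (edgeR adjusted p = 9.31e-05 and 0.000228). Hcn2, a pacemaker channel gene, fell by 2.74 (edgeR adjusted p = 0.000167). Ank3, the ankyrin of the axon initial segment, was called lower (-4.60 ± 1.4, edgeR adjusted p = 0.0171), but its clones ran from 1.98 to 372 CPM and overlapped the ES lines at 206 and 330.

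How many channel genes differed between XX and XY clones depended on the tool. Of 85 tested with edgeR, 3 passed (3.53%, against 1.29% of all 13591 genes), and DESeq2 called 15. By edgeR 1 was higher in XX clones (0.876% of all genes) and 2 were lower (0.412%), and the groups did not overlap in 15 of 94 (16.0%, against 16.4% of all genes). Cacng4 was lower in XX clones, with the values above (-1.19 ± 0.16, edgeR adjusted p = 0.0335). Kcnv1, a silent Kv subunit, was at 0.0148, 0.0401, 0.122 and 0.0354 CPM in XX clones and at 1.60, 2.78, 3.34 and 0.870 in XY clones (-5.29 ± 0.73, edgeR adjusted p = 0.0342). Scn2b, a sodium channel beta subunit, was at 11.2, 6.49, 5.52 and 7.02 CPM in XX clones and at 1.46, 1.11, 2.20 and 1.52 in XY clones (2.25 ± 0.31, edgeR adjusted p = 0.0342). Its counts are shared with Gm10684, but its FPKM was also higher in XX clones, 0.855 to 1.56 against 0.167 to 0.450. No channel gene passed when any 1 XY clone was left out (adjusted p of these 3 genes from 0.0709 to 0.116). Both ES lines and the XY clones share a beginning of their library names that the XX clones lack. A line difference in the change from ES to NPC therefore cannot be told apart from the set of libraries. It also rests on 1 ES library per line. The test of whether the change from ES to NPC differed between the lines called 0 of 94 channel genes with edgeR, against 0.101% of all genes (0.0808% higher and 0.0202% lower); 19 channel genes were at an unadjusted p under 0.05 (20.2%, against 11.0% of all genes), and DESeq2 called 13.

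Channel genes varied more between clones than most genes. The SD of log2(CPM + 1) over the 8 clones had a median of 0.576 over the channel genes and 0.253 over all genes. The gap was present in each of 3 ranges of mean CPM from 1 up: among genes of a mean CPM from 1 to 10 the medians were 0.735 for 37 channel genes and 0.398 for all, from 10 to 100 they were 0.685 for 24 and 0.252, and from 100 up they were 0.661 for 8 and 0.243. At least 1 clone had 0 counts in 20 channel genes (21.3%, against 11.6% of all genes). Unlike the SDs by range, this share was not matched for level. The median of the mean CPM over clones was 3.98 for channel genes and 17.8 for all genes. Clone 129 was the lowest clone for 28 channel genes (29.8%, against 20.6% of all genes), and the highest for 10 (10.6%, against 16.9%). E1.2 was the highest for 30 (31.9%, against 22.0% of all genes) and the lowest for 17 (18.1%, against 23.3%).

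The 3 genes of widest spread had not passed the test against ES lines. Kcnj10 (SD 2.45) was at 0.385, 88.0, 12 and 57.4 CPM in the XX clones and at 9.24, 1.13, 38.4 and 0.320 in the XY clones in the order given above, a range of 275-fold. It was high in clones of both lines. Cacna2d3, an alpha2delta subunit (SD 2.35), was at 0, 29.4, 35.8 and 87.1 CPM in XX clones and at 1.22, 9.35, 0.518 and 7.37 in XY clones. It had no allele-informative counts in clone 129 and most in E1.2.

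Cacng5 (SD 2.27), another gamma subunit, was at 0.311, 21.1, 0.670 and 0.0265 CPM in XX clones and at 55.8, 33.5, 8.99 and 13.0 in XY clones. Here E1.2 was lowest, with 3 counts. Kcnk13 (SD 1.79), Kcnj15 (SD 1.74) and Kcnh5 (SD 1.61) came next, and the 3 had their maxima in different clones, C2, mC3 and E1.2. Kcnc1 and Kcnd3, the largest gains by FPKM, each had an SD of 0.32. Among genes of a mean CPM of 100 or more, the median SD was 0.661 for channel genes and 0.243 for all genes. The SD of Cacng7 was 0.28, and that of Cacng8, a gene of low level, was 0.23.

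Over the 8 clones, the genes with the log2(CPM + 1) pattern most like that of Kcnj10 were Rps6kb2 (r = 0.988), Ptprcap (0.978) and Invs (0.973), among 11774 genes. For Cacna2d3 they were Mir1932 (0.969), Sdc2 (0.965) and Nacc2 (0.960). These coefficients describe 8 points that share their libraries, and the highest of so many genes is high for most patterns.

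**Figure D3:**
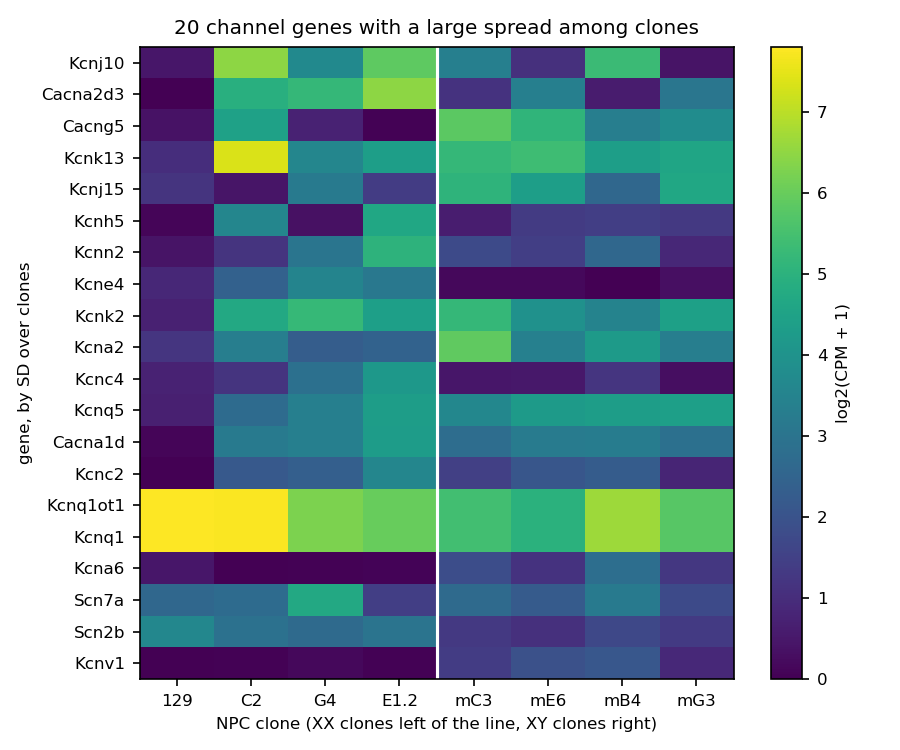
Log2(CPM + 1) of 20 channel genes with a large SD over the 8 NPC clones, genes in rows and clones in columns. Kcnj10, Cacna2d3 and Cacng5 lead with SDs of 2.45, 2.35 and 2.27, and each is high in another set of clones.

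Allele use was read in libraries where a gene had at least 20 counts. Calls of monoallelic use needed 85% or more of the counts from 1 allele and a passed exact binomial test, and calls of biallelic use 70% or less from the major allele. It was counted as random monoallelic where, of at least 6 testable clones, at least 1 was monoallelic and another was biallelic or was called for the other allele. Of 69 testable channel genes 24 were random monoallelic (34.8%, against 13.7% of the 12108 autosomal genes testable). Without 10 of the rows that share counts with another row it was 21 of 61 (34.4%). Different clones were called for different alleles in 6 of 69 (8.7%, against 1.8%). Kcnip1 is in each of these counts only through a Cast call on counts shared with Kcnmb1. Of these 69, none was called for the same allele in all testable clones (1.01% of all genes were), and 17 were biallelic in every testable clone (24.6%, against 70.2%).

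These shares depended on the counts. With a mean of under 200 counts 7 of 12 channel genes were random monoallelic (58.3%, against 42.0% of all genes in that range), from 200 to 1000 it was 9 of 26 (34.6%, against 19.7%), and from 1000 to 5000 it was 6 of 21 (28.6%, against 8.35%). From 5000 up it was 2 of 10 (against 4.77% of all genes), the rows Kcnq1 and Kcnq1ot1 with the same counts. Genes with few counts were called more often in both sets, and the channel genes had the higher share in the ranges below 5000. From 5000 up no other channel gene was random monoallelic, so the share there rests on a single locus held in 2 rows. With a minimum of 100 counts, 10 of 55 channel genes were random monoallelic (18.2%, against 8.35% of all genes), and with 500 it was 3 of 29 (10.3%, against 5.43%): Kcnk13, Kcnq1 and Kcnq1ot1. Kcnq1 and Kcnq1ot1 again count the same locus, so this share does not show an excess of channel genes at high counts.

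**Figure D4:**
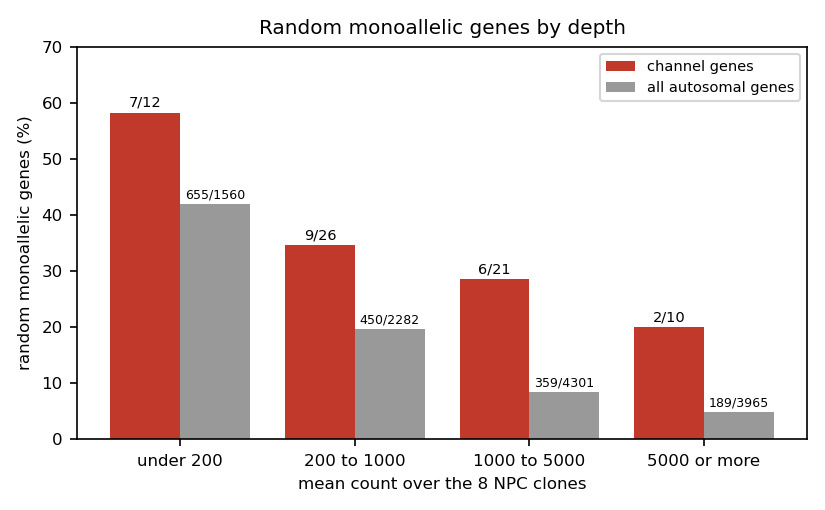
Percent of testable genes that were random monoallelic, by mean count over the 8 NPC clones, for channel genes and all autosomal genes, with the number of genes above each bar. Both sets fall with depth, from 58.3% of channel genes and 42.0% of all autosomal genes under 200 counts to 4.77% of all autosomal genes from 5000 up.

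By role, random monoallelic genes were 8 of 19 testable Kv pores, 1 of 6 Kv auxiliary subunits, 3 of 8 inward rectifiers, 1 of 6 tandem-pore channels and 3 of 6 calcium- or sodium-activated channels. They were 0 of 2 sodium channel alpha and 2 of 3 beta subunits, 0 of 5 calcium channel alpha1 and 4 of 12 auxiliary subunits. Over all testable autosomal genes the share was 13.7%. The Kv auxiliary gene is Kcnip1, which is counted only through a Cast call in mE6 on counts shared with Kcnmb1. The Kv pores include Kcnq1, with the counts of Kcnq1ot1. In the ES lines 9 of 63 and 9 of 69 testable channel genes were monoallelic (14.3% and 13.0%, against 5.87% and 5.12% of all autosomal genes). The clones ran from 6.67% in mB4 to 19.7% in clone 129, against 5.83% to 8.37% of all genes. These shares per library were not matched for counts. The median channel gene had a mean of 3.98 CPM over the clones, against 17.8 for the median gene of the table. The 129 share had a median SD over clones of 10.6 percentage points for 58 channel genes and of 3.27 for all genes; with at least 500 counts in every clone it was 6.38 and 2.55.

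Kcnk13, read deeply in 7 of 8 clones, used its alleles differently between them. The 129 allele gave 98.6% of 69 counts in clone 129, 64.9% of 16301 in C2, 9.65% of 1078 in G4 and 94.5% of 2238 in E1.2. In mC3, mE6, mB4 and mG3 it gave 81.6% of 3182, 64.0% of 3298, 71.9% of 1368 and 81.9% of 2015. The gene was called monoallelic for 129 in clone 129 and E1.2 and for Cast in G4. C2 was called biallelic, and none of the XY clones was called monoallelic.

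Kcnq1ot1, an imprinted RNA read from the paternal allele in most tissues, had a 129 share of 54.2% in F1-21.6 and 16.0% in F1-23. It was at 61.2% and 68.6% in clones 129 and C2 and at 4.96% and 11.6% in G4 and E1.2. In XY clones mC3 and mE6 it was at 2.65% and 0.0400%, and in mB4 and mG3 at 61.8% and 56.0%, over 2497 to 21425 counts in the clones. The 4 clones called monoallelic were all called for Cast, and the levels were highest in 3 of the biallelic clones, 129 and C2 at 222 and 215 CPM and mB4 at 100.

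Other genes were called for either allele in different clones at lower counts. Kcnip1, a Kv4 partner, was at 92.5% 129 of 335 counts in C2, 95.1% of 405 in G4, 100% of 111 in mC3, 99.4% of 161 in mB4 and 95.7% of 140 in mG3, but at 7.89% of 38 in mE6. Its row shares counts with that of Kcnmb1: in mE6 Kcnmb1 had 36 counts at 2.78%, and the FPKM of Kcnip1 there was 0.00793, so the Cast call in mE6 cannot be assigned to Kcnip1. Kcnn1 was at 1.60% of 187 counts in C2 and 85.2% of 486 in mC3, while both ES lines were near equal at 51.7% and 53.6%. Kcnf1 was at 96.0% of 25 counts in clone 129 and 0.342% of 292 in mE6, and biallelic or between in the other 6.

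Cacng5 was at 4.76% of 21 counts in clone 129 and 88.2% of 1136 in mG3, and at 100% of 44 and 88.1% of 67 in the ES lines. Scn2b leaned to Cast in most libraries, with 2.63% 129 of 647 counts in C2, 11.1% of 794 in E1.2 and 0.752% of 133 in mG3, against 83.3% of 90 in mE6. For Kcnj10 the 2 clones with the highest levels differed: C2 was at 78.3% of 8776 counts and E1.2 at 12.5% of 6487, called Cast.

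The 129 counts hold an irregularity that touches these shares. Over autosomal genes and libraries with at least 20 counts, the 129 count was exactly 1 in 1524 cases, 0 in 36 and 2 in 188, whereas the Cast count was 0 in 1188, 1 in 173 and 2 in 267. A 129 count of 1 may therefore stand for 0, and 28 of the 69 Cast calls in channel genes have it. With such counts taken as 0, the same number of channel genes, 24 of 69, was random monoallelic. Exact intervals of single shares cover counting error only, since counts from 1 read are not independent: that of mE6 in Kcnf1 ran from 0.00867% to 1.89%, and that of E1.2 in Kcnk13 from 93.4% to 95.4%.

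**Figure D5:**
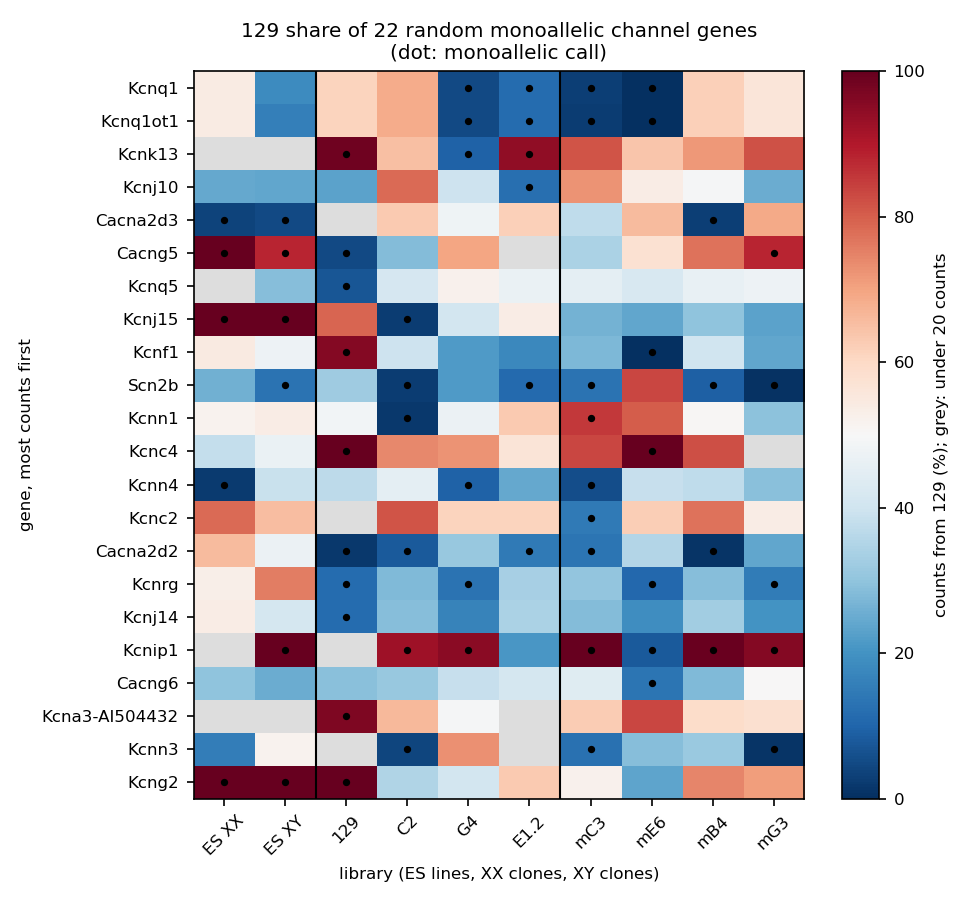
Share of counts from the 129 allele (percent, colour) in each library for 22 of the 24 random monoallelic channel genes, with a dot where a library was called monoallelic and grey under 20 counts. Of these, 16 have dots in 1 to 3 clones, and Kcnk13, Kcnip1 and Kcnn1 have dots at both ends of the scale, where the Cast dot of Kcnip1 rests on counts shared with Kcnmb1.

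Kcnc1 and Kcnd3, the genes with the highest level in the clones, used both alleles in each of them. The 129 share of Kcnc1 was between 38.9% and 45.9% and that of Kcnd3 between 50.4% and 55.6%. In the XY ES line Kcnd3 had 48 counts, 4.17% of them 129, and was called Cast. Cacng4 ran from 36.1% to 45.4%, Cacng7 from 37.9% to 43.5%, Kcnip3 from 32.9% to 45.3% and the falling gene Kcnk5 from 41.7% to 63.4%. Kcnmb4 leaned to 129 in all clones, from 64.8% to 81.6%, and Kcnj16 ran from 24.4% in mG3 to 70.4% in mE6 without a monoallelic call.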

How the data were processed

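Polyadenylated RNA was sequenced as 100-base read pairs on an Illumina HiSeq, per the labels. The submitters' processing notes name TopHat 1.4.0, Cufflinks 1.3.0, SAMtools and build mm9, without saying which step made which column. The table the authors deposited holds, per gene and library, a count of allele-informative observations, the share (ratio) of those counts from 129, and FPKM. How a read over several variants was counted is not given in the sources used here. All columns of the 10 libraries were mapped to samples; 2 repeat libraries were not analysed here. Starts in the table count from 0: adding 1 met an annotated start for 5524 genes, against 456 as deposited.

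The counts were compared with edgeR 4.0.16 in R 4.3.3 (TMM, filterByExpr, quasi-likelihood F test, Benjamini-Hochberg 0.05 over all genes), checked on simulated counts. A standard error is the absolute log2 change over the root of F. CPM used TMM-scaled totals. A fold against a group at 0 used a floor of 3 counts over the group. Allele calls used exact binomial tests against equal shares, adjusted within each library (scipy 1.17.1). Intervals are 95% Clopper-Pearson. Alternatives were RLE factors, no filter, DESeq2 1.42.0, limma 3.58.1 on log2(FPKM + 1) and log2(FPKM + 0.1), other library sets, other count minimums and each library left out. Sequences come from the mm9 genome, with strand from GENCODE vM1; 92 of 94 channel genes had a window. Named genes were the 10 largest rises and 5 largest falls among calls, the 5 called genes of highest FPKM, the top gene of each role in ES and in NPC, genes called between XX and XY clones, the 6 of widest spread, up to 12 random monoallelic genes with most counts and genes without ES counts; 13 more (Cacna2d1, Cacna1c, Cacna1g, Cacnb2, Cacng8, Kcnt1, Kcna2, Kcnd2, Kcnj2, Kcnip1, Kcnn3, Kcnn4 and Cacna2d2), and Kcnip2 were named after their values were seen. Results of 3 channel genes are counted but not reported here by name. The genes and lists were chosen with earlier results of these data known.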

Additional observations from a re-analysis of the deposited data

Results flagged for a closer look

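Of 106 groups of 4 clones (53 named channel genes in XX and in XY clones), 8 held a clone far from the other 3 of its group, and chance alone flags about 1 in 20 groups. Among XX clones, clone 129 was the high one for Kcnj12 (7.95 CPM) and the low one for Cacna1g (17.6 CPM). C2 was high for Cacng5 (21.1 CPM), and G4 was high for Kcnn3 (3.12 CPM) and for Kcna1 (0.0305 CPM, the XX clone with any count). Among XY clones, mC3 was high for Kcnab3 (3.68 CPM) and low for Kcnh5 (0.545 CPM), and mB4 was low for Kcnc1 (961 CPM). The Kcnc1 level of mB4 was still far above both ES lines.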

How the results depend on the processing

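No paired analysis was possible because the clone numbers pair neither XX with XY clones nor NPC with ES libraries. Over the alternatives, 15 of 37 named genes called between NPC and ES kept their call in each, among them Kcnc1, Kcnd3, Kcnk5, Kcnj16, Kcnip3 and Cacng4. Single calls were the same in 903 comparisons, lost in 66, gained in 22 and turned in 2: Kcnq1 was -0.091 with limma on log2(FPKM + 1) and -0.66 on log2(FPKM + 0.1), which use its own FPKM and not the counts shared with Kcnq1ot1. With the ES lines and XY clones only, 40 channel genes were called higher and 18 lower, and with DESeq2 40 and 14. The number of channel genes called higher ran from 24 to 37 with 1 library left out, and lower from 6, without the XY ES line, to 16, without E1.2. For XX against XY clones, genes called numbered 1932 with DESeq2, 468 and 428 with limma on log2(FPKM + 1) and log2(FPKM + 0.1), and 7 to 496 with 1 clone left out; channel genes numbered 15 with DESeq2 and 0 to 7 with 1 clone left out. For the interaction of line and cell type, genes called numbered 562 with DESeq2, 294 with limma, 50 with 129 counts of 1 taken as 0 and 3 to 30 with 1 clone left out; channel genes numbered 13 with DESeq2, 2 with limma and 0 to 1 with 1 clone left out. The 101 monoallelic calls in channel genes became 63, 46 and 16 at minimums of 50, 100 and 500 counts and 62 at a major allele of 95%. The 24 random monoallelic genes became 15, 10 and 3 at those minimums, 15 at 95% and 21 to 25 with 1 clone left out. The median SD of 0.576 was 0.333 in log2(FPKM + 1) and 0.498 to 0.619 with 1 clone left out. The minimum of 500 counts and the setting of 129 counts of 1 were chosen after seeing the data. Except where named, the cause of these shifts was not tested.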

Other observations

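Some channel genes were monoallelic in an ES line at few counts and not in most NPC clones, where counts were higher. Kcnj15, an inward rectifier gene, was 100% 129 in both ES lines, over 85 and 215 counts, and between 23.3% and 53.8% in 6 clones. Clone 129 was at 79.1% of 86 counts and not called, and C2 was called Cast at 2.70% of 37 counts. Cacna2d3 was at 3.57% of 28 and 4.76% of 21 counts in the ES lines, and between 47.8% and 68.9% in C2, G4, E1.2, mE6 and mG3. It was at 37.3% of 110 counts in mC3, and mB4, at 2.78% of 36, was called Cast like the ES lines. Kcnn4, an intermediate-conductance calcium-activated channel gene, was called Cast in the XX ES line at 2.13% of 47 counts, in G4 at 9.60% of 198 and in mC3 at 5.57% of 610, with 24.3% to 45.2% in the other clones.

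Cacna2d2 and Kcnn3 were called monoallelic for Cast in several clones. Cacna2d2 was at 1.64% 129 of 61 counts in clone 129, 8.01% of 287 in C2, 14.5% of 842 in E1.2, 13.5% of 215 in mC3 and 0.917% of 109 in mB4, and at 65.9% and 47.0% in the ES lines. Kcnn3 was at 4.00% of 25 counts in C2, 12.5% of 216 in mC3 and 0.855% of 117 in mG3, against 73.0% of 307 in G4. Both Kcnb2 and Kcna1, Kv pores without ES counts, had allele-informative counts in some clones only, at 0 to 0.885 and 0 to 0.322 CPM, and did not pass (edgeR adjusted p = 0.0603 and 0.0704).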
